A study of Moricandia arvensis and Moricandia suffruticosa and Moricandia moricandioides with 78 samples.

Results

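Cuticular wax synthesis is described here through 10 genes of the 33602 Arabidopsis gene models counted in each library: CER1 (AT1G02205), CER3 (AT5G57800), MAH1 (AT1G57750), CER4 (AT4G33790), WSD1 (AT5G37300), KCS6 (AT1G68530), KCS1 (AT1G01120), KCR1 (AT1G67730), CER2 (AT4G24510) and MYB96 (AT5G62470). The 10 were picked as a fixed list of identifiers from the wax pathway, selected on values of these libraries that were already known. Which measured values weighed in the choice is not recorded, and differences between Mmo and Mav are counted among them here. Differences between Mmo and Mav, and levels set between species, are therefore given as descriptions with no p printed, and "called" marks there only the genes that passed the limits. The tests within a species, and of the response of Mmo against that of Msu, are no independent evidence that the pathway responded. All 10 had counts in every library, with TPM (a share of transcripts that allows for gene length) between 0.222 and 1318, and all 10 passed the filter on low counts in each of 18 comparisons.

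The study followed mature leaves of 3 Moricandia species through soil drying and rewatering: M. moricandioides (Mmo, the C3 species, line Osnabruck:04-0393-10-00), M. arvensis (Mav, C2, line IPK Gatersleben:MOR1) and M. suffruticosa (Msu, C2, line Royal Kew Garden:0105433). C2 plants recapture photorespired CO2 in the bundle sheath. Water was withheld until stomatal conductance had dropped to 50% (T1, moderate drought) and 10% (T2, severe drought) of the starting value, and plants were then rewatered (RW), while controls had their water replaced daily. The 78 RNA-seq libraries were, for Mmo, 3 droughted and 4 control at T1, 3 and 2 at T2, 4 rewatered and 4 control at RW and 4 at T0. Those of Mav were 1 droughted and 4 control at T1, 5 and 5 at T2, 4 rewatered and 5 control at RW and 5 at T0. Those of Msu were 3 droughted and 4 control at T1, 4 and 3 at T2, 4 rewatered and 3 control at RW and 4 at T0. Each species was represented by a single line, so that species and line cannot be told apart. The paper describes Msu as tetraploid and Mmo and Mav as diploid. It states that ploidy affects quantification and was not addressed by its pipeline. For that reason it kept quantitative comparisons between species to Mmo and Mav.

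The leaf cuticle is a waterproof layer of cutin and waxes made by the epidermis. Waxes start from long-chain fatty acids, which a complex in the endoplasmic reticulum elongates to very long chains: the condensing enzymes KCS1 and KCS6 add the carbons, KCR1 reduces the product, and CER2 allows the longest chains to be reached. One branch then forms aldehydes and alkanes through CER1 and CER3, and the P450 enzyme MAH1 hydroxylates alkanes to secondary alcohols and ketones. The other branch reduces the chains to primary alcohols through CER4, and WSD1 joins alcohols and acids into wax esters. MYB96 is a transcription factor that activates wax genes and is induced by abscisic acid and drought in Arabidopsis. These roles are known from Arabidopsis, and each value below is a sum over whatever Moricandia transcripts matched best to that Arabidopsis gene, so that close relatives of a gene (the KCS family, or AT1G02190 beside CER1) may share reads with it.

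Total counts per library were between 22346621 and 41675513, and several libraries limit what the comparisons can show. Of the 116 pairs of libraries within a group, 20 were nearly identical, with a median squared count difference of 1.497 to 3.5 times that of counting noise, against at least 5.734 for all other pairs. These pairs left 61 distinct profiles. Nothing in the sources used here says that such libraries came from the same plant, so they were kept as separate replicates, and a call that ended when they were summed is named beside the result. Among the libraries labelled Msu at T2, the droughted S5s and S8s were nearly identical to the controls S33c and S36c (ratios of 1.9 to 2.13), whereas the droughted S2s and S4s stood far from those controls (80.9 to 99.3). The 6 genes of a water-deficit list, among them NCED3 (AT3G14440), which makes abscisic acid, summed to 321 and 319 CPM (a share of counts, scaled by TMM) in S5s and S8s, against 4238 and 5911 CPM in S2s and S4s and 339 to 787 CPM in the 3 controls. These 4 near-identical libraries were also nearer to the Mmo controls of T2 (31.8 to 40.3) than to the Msu controls of T1 (60.7 to 85.7), and the 3 libraries labelled Msu control at RW were nearer to the Mmo controls of RW (19.4 to 69.4) than to the Msu controls of T1 (73.6 to 101). For S28c, the other Msu control of T2, the order was the reverse (80.7 and 84.6 to Mmo, 36.9 to 52 to Msu). Results on Msu at T2 and RW are thus those of libraries as labelled. Sequencing lane 7 held 11 of the libraries, and leaving it out was tried as an alternative where enough libraries remained. It held all rewatered Mmo libraries, so that it could not be left out of their comparisons. The Mmo controls of RW and the droughted Mmo of T2 were all in lane 6. At T0 Mmo was in lane 5, Msu in lane 3 and Mav in lanes 1 and 7, so that species and lane cannot be told apart.

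In Mav, severe drought went with 6 of 6 of these water-deficit genes rising (8932 to 12659 CPM summed in droughted plants, against 574 to 1160 CPM in controls). In Mmo 3 of 6 rose at T2 (4666 to 5274 CPM, against 354 and 1022 CPM) and 3 of the 5 tested rose at T1. In Msu at T1 none of the 6 was called, where 0.137% of all genes were called higher. Their median log2 fold change was 4.02 there, against 1.25 in Mmo at T1. The summed levels in Msu were 1639 to 5329 CPM in droughted plants, against 432 to 1696 CPM in controls. They overlapped between the droughted S10s (1639 CPM) and the control S26c (1696 CPM). Of the 4 genes listed as epidermal, 1 (AT2G42840) was at 0 in 7 libraries, and another, KCS10 (AT2G26250), is itself a wax and cutin gene. Of the trichome markers, AT3G27920 was at 0 in 75 of the 78 libraries and the other, AT1G79840, did not exceed 0.685 CPM. Of the flower markers AT3G54340 was at 0 in 68 libraries, whereas AT5G20240 reached 35 CPM. None of the 4 guard cell markers was called in the drought comparisons of T1 and T2. In whole leaves, fewer epidermal cells and less wax gene RNA per cell cannot be told apart.

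**Figure D1:**
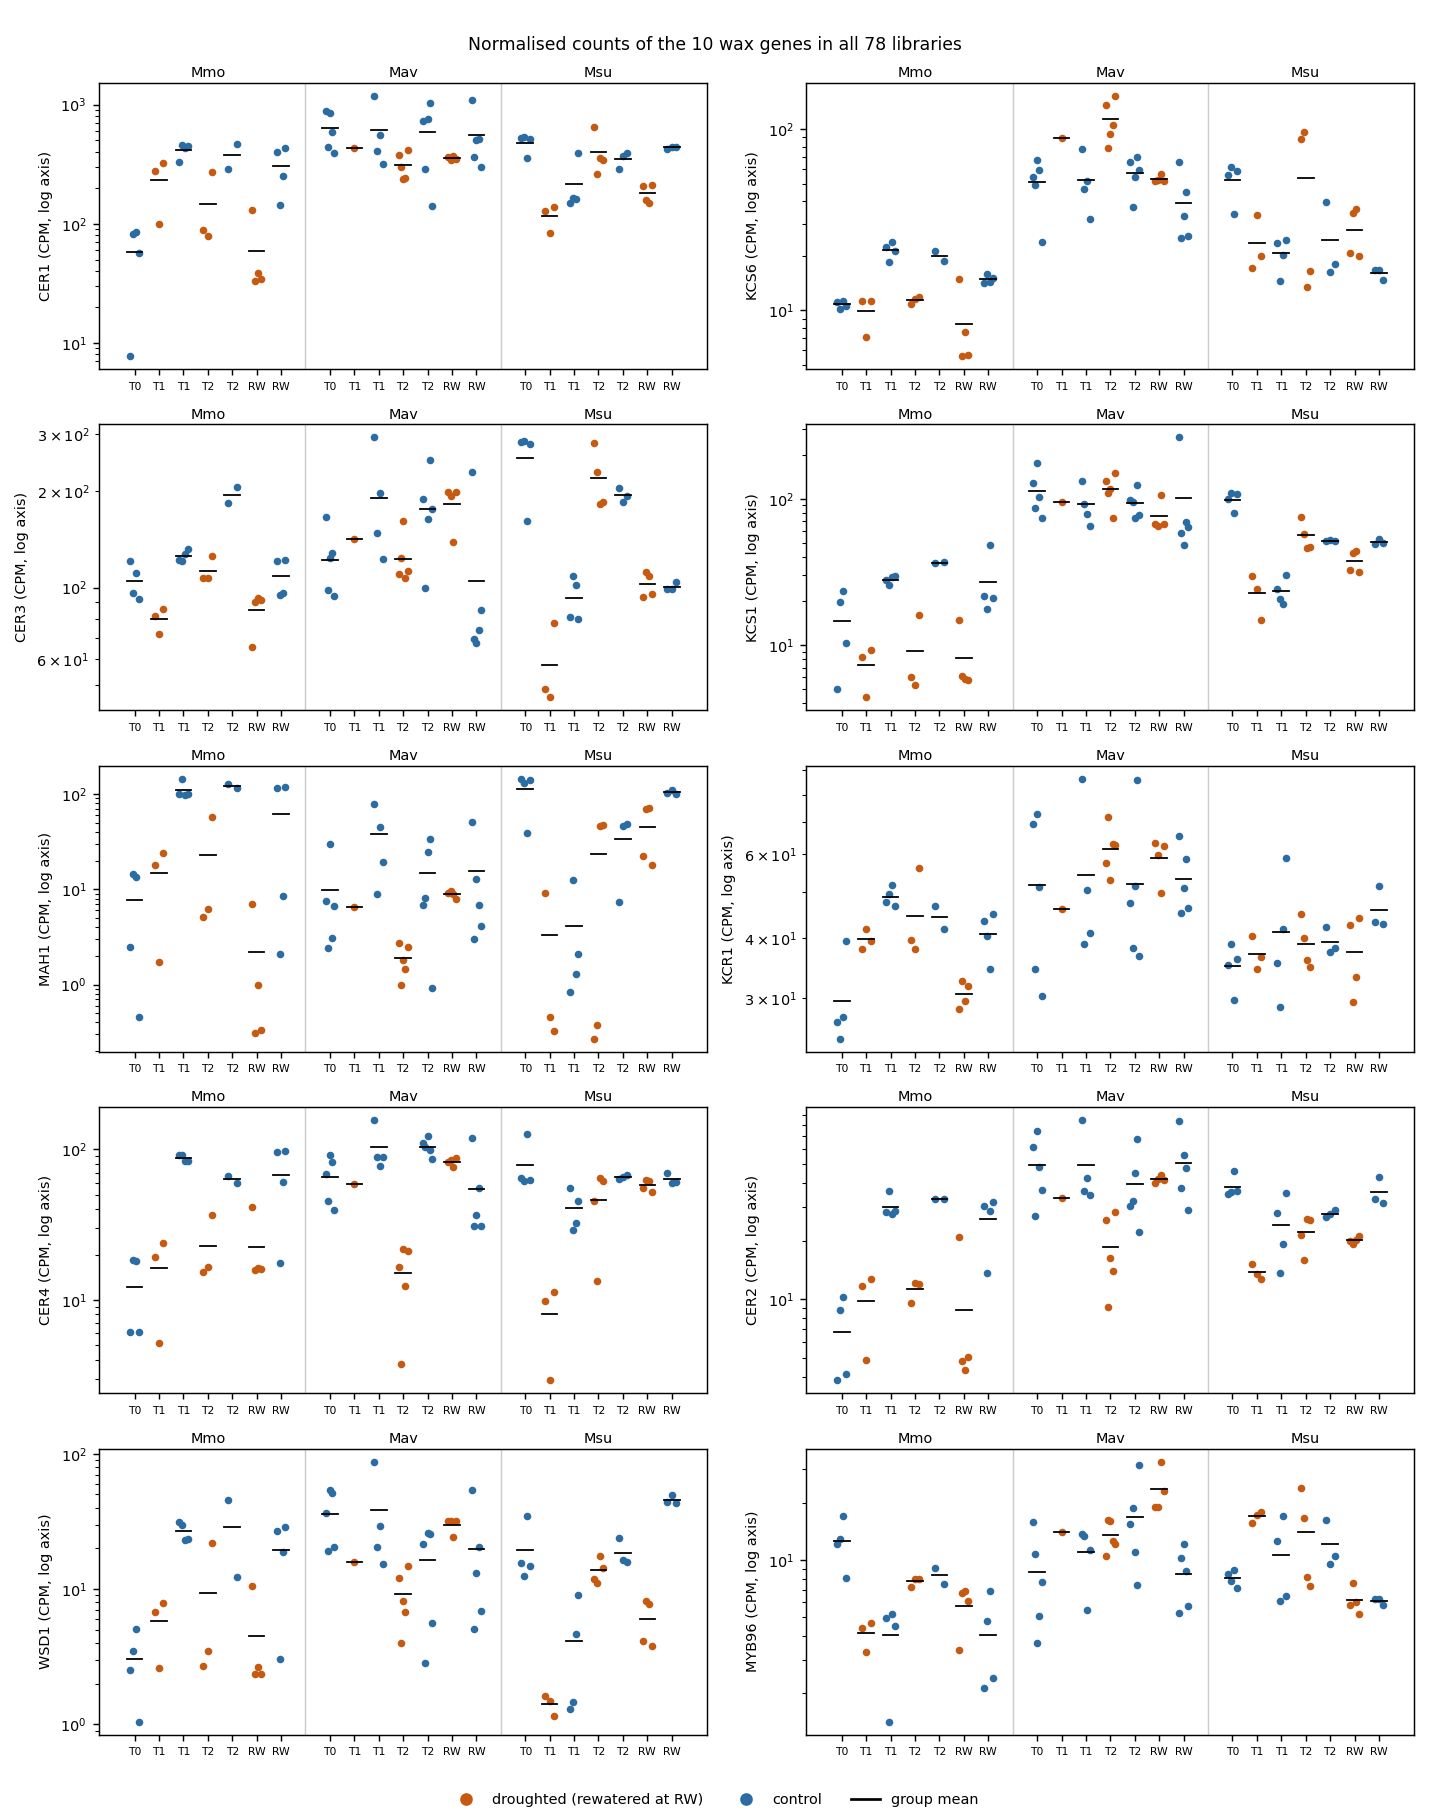
CPM (log axis) of each wax gene in all 78 libraries, by species and sampling point, with droughted or rewatered libraries left of the controls of the same point and a line at each group mean. CER4 in Mav at T2 is separated by treatment (3.74 to 21.6 CPM in droughted plants, against 86.1 to 123 CPM in controls), and MAH1 spreads from 0.912 to 33.8 CPM within the Mav controls of T2 alone.

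Before water was withheld, the alkane-forming pair CER1 and CER3 had the highest mean levels in all species. In TPM, CER1 averaged 63.7 ± 42.8 in Mmo (SD, n = 4), 661 ± 285 in Mav (n = 5) and 578 ± 103 in Msu (n = 4). CER3 averaged 119 ± 23.5, 137 ± 43.9 and 309 ± 73.7 TPM in the same order, so that CER3 stood above CER1 in Mmo and below it in the C2 species. In Mmo the order by mean continued with KCR1 (26.9 TPM), KCS1 (14.1), MYB96 (13.9), CER4 (13), KCS6 (11.8), MAH1 (7.26), CER2 (5.77) and WSD1 (2.47). Neighbours in that order from KCS1 to CER2, and CER1 and KCR1, differed by less than the larger of their SDs. In Mav, KCS1 (108 ± 43.7 TPM) followed CER3, then CER4 (69.7 TPM), KCS6 (63.6), KCR1 (47.5), CER2 (40.6) and WSD1 (35.8), with MYB96 (10) and MAH1 (8.98) lowest. From CER3 to WSD1 each neighbour differed by less than the larger SD. In Msu, MAH1 (114 ± 50.7 TPM) and KCS1 (106 ± 13.5 TPM) followed CER3, and MYB96 was lowest at 9.41 ± 1.23 TPM.

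Of the 10 genes, 6 were lower in Mmo than in Mav at T0, covering both branches and the elongation step. Every Mmo library lay below every Mav library for each of the 6, as it did for 19.7% of all genes. The log2 fold change, Mmo over Mav, was -3.55 ± 0.50 (SE) for WSD1, -3.44 ± 0.61 for CER1, -2.94 ± 0.46 for KCS1, -2.86 ± 0.40 for CER2, -2.41 ± 0.43 for CER4 and -2.23 ± 0.28 for KCS6. CER3 (-0.20 ± 0.20), MAH1 (-0.34 ± 0.92), KCR1 (-0.79 ± 0.30) and MYB96 (0.56 ± 0.40) were not called. A gene was called where the log2 fold change exceeded 1 in size and the adjusted p was under 0.05. Of the 20187 genes tested, 14.4% were called higher and 17.4% lower in Mmo, and the median log2 fold change was -2.32 over the 10 wax genes and 0.01 over all genes. Since this contrast was among the values known when the list was made, nothing is read from the count. M1c had only 7.76 CPM of CER1, against 56.6 to 84.8 CPM in the other Mmo libraries of T0. Of the epidermal markers 1 of 4 was called lower in Mmo (summed 84.8 to 165 CPM in Mmo and 115 to 273 CPM in Mav), as were 2 of the 4 guard cell markers (20.5 to 44.8 CPM in Mmo and 36.8 to 68 CPM in Mav) and 1 of the 4 mesophyll genes, which encode Rubisco and light-harvesting proteins (17458 to 22649 CPM in Mmo and 27605 to 46768 CPM in Mav), and their part in the wax gene result was not tested.

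For 4 of these 6 genes the well-watered controls of Mmo and Mav overlapped at T1. The share of all genes that overlapped is not given here, so nothing is read from this count. At T1 the Mmo controls were in lane 5 and the Mav controls in lane 1, so that species and lane cannot be told apart. There CER1 was at 329 to 457 CPM in Mmo and 316 to 1180 CPM in Mav, CER4 at 83.4 to 92 CPM in Mmo and 77.8 to 156 CPM in Mav, WSD1 at 23.2 to 31.1 CPM in Mmo and 15.4 to 87.6 CPM in Mav. CER2 was at 27.5 to 36.1 CPM in Mmo and 34.7 to 84.3 CPM in Mav. At T0 the Mmo libraries had reached only 84.8 CPM of CER1, 18.5 CPM of CER4, 5.11 CPM of WSD1 and 10.3 CPM of CER2. The condensing enzymes were without overlap at T1 too, KCS6 at 18.4 to 23.9 CPM in Mmo and 31.8 to 77.8 CPM in Mav, and KCS1 at 25.8 to 29.6 CPM in Mmo and 65.1 to 133 CPM in Mav.

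Against Msu, 8 of the 10 genes were lower in Mmo at T0, where 15.4% of all 19957 genes tested were called higher and 16.9% lower. The 2 genes added to the 6 above were CER3 (-1.26 ± 0.21) and MAH1, which had 0.456 to 14.4 CPM in Mmo and 38.7 to 144 CPM in Msu (log2 fold change -3.87 ± 0.90). Of the epidermal markers 3 of 4 were called lower in Mmo as well (summed 84.8 to 165 CPM in Mmo and 218 to 264 CPM in Msu), and 1 of the 4 guard cell markers (20.5 to 44.8 CPM in Mmo and 34.6 to 57.9 CPM in Msu), with their part in the wax gene result not tested. Between the C2 species, Mav over Msu, only CER3 (-1.05 ± 0.23) and MAH1 (-3.52 ± 0.73) were called, both lower in Mav, beside 7.77% of 20166 genes called higher and 6.70% lower. The part of the tetraploidy of Msu in these 2 contrasts was not tested. Adding up the near-identical libraries left Msu with 2 profiles at T0 and ended the calls of CER3 and MAH1 in both contrasts. Of all genes, 3475 were then called for Mmo over Msu (6449 before) and 721 for Mav over Msu (2917 before). Between Mav and Msu, CER3 was also inside the fold limit (-0.96 without A48 and -0.98 without A4, for example) without any one of A4, A48, S38, S39 and S43. WSD1, the wax ester synthase, was 0.90 ± 0.40 higher on the log2 scale in Mav than in Msu, and without S42 (34.6 CPM, against 12.6 to 15.6 CPM in the other Msu libraries) it was called at 1.34.

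**Figure D2:**
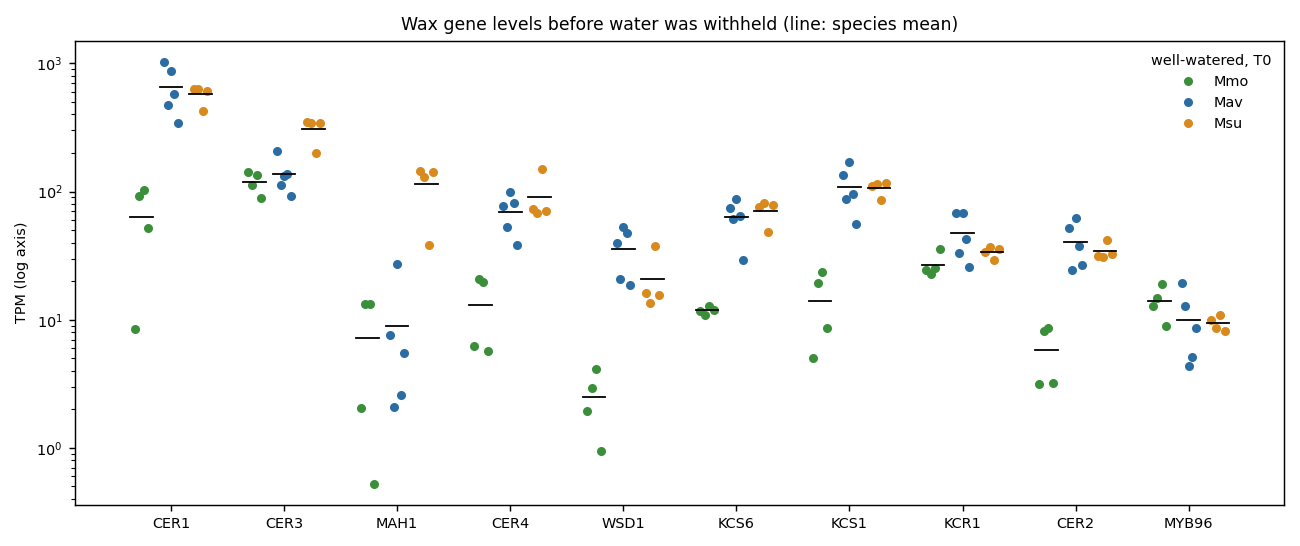
TPM (log axis) of the wax genes in well-watered plants at T0, each point 1 library and each line a species mean (Mmo n = 4, Mav n = 5, Msu n = 4). For CER1, CER4, WSD1, KCS6, KCS1 and CER2 all Mmo points lie below all Mav and Msu points, while CER3 and MYB96 of Mmo overlap with Mav.

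The comparison of droughted with control plants at T1 asked how the genes responded to moderate drought. In Mmo, 6 wax genes fell and none rose: both condensing enzymes and CER2 of the elongation step, CER4 and WSD1 of the alcohol branch and MAH1 of the alkane branch. KCS1 had 9.18, 8.26 and 4.37 CPM in droughted plants, against 29.6, 27.6, 25.8 and 29 CPM in controls, a log2 fold change of -1.96 ± 0.25 (adjusted p = 0.00161, edgeR). WSD1 had 7.93, 6.79 and 2.59 CPM in droughted plants, against 23.4, 31.1, 29.7 and 23.2 CPM in controls (-2.24 ± 0.37, adjusted p = 0.00437). No droughted library reached the lowest control for either gene. CER4 had 24.0, 19.4 and 5.14 CPM in droughted plants, against 83.4, 92.0, 90.9 and 83.7 CPM in controls (-2.46 ± 0.47, adjusted p = 0.00812). MAH1 had 24.3, 18.2 and 1.71 CPM in droughted plants, against 99.9, 100, 145 and 97.4 CPM in controls (-2.93 ± 0.77, adjusted p = 0.0251). M8s was the lowest of the droughted libraries for all 6, as the values of these 4 show. CER2 (-1.64 ± 0.33, adjusted p = 0.00911) and KCS6 (-1.13 ± 0.19, adjusted p = 0.00479) fell as well.

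The other genes at T1 in Mmo moved less. CER3 (-0.67 ± 0.12, adjusted p = 0.00523) and KCR1 (-0.32 ± 0.10, adjusted p = 0.0459) passed the p threshold but not the fold limit, and CER1 had a log2 fold change of -0.85 ± 0.38 (adjusted p = 0.127). MYB96, the drought-induced regulator in Arabidopsis, was at 4.68, 4.42 and 3.29 CPM in droughted plants and 4.51, 4.99, 1.42 and 5.18 CPM in controls (0.02 ± 0.41). Of the 10 genes, 9 were lower in every droughted library than in every control, as were 23.3% of all genes. Of all 19989 genes tested, 6.72% rose and 11.1% fell, and the median log2 fold change was -1.38 over the wax genes and -0.02 over all genes. The 4 epidermal markers summed to 40.7 to 59.5 CPM in droughted plants and 113 to 132 CPM in controls, with 2 of the 3 tested falling. Their median log2 fold change was -1.38, and that of the 4 mesophyll genes was -1.41 with 0 called. The mesophyll genes summed to 5950 to 6639 CPM in droughted plants and 8859 to 37549 CPM in controls. The part of neither list in the wax gene result was tested. With near-identical libraries summed, the calls of KCS1 (adjusted p = 0.0322) and WSD1 (0.045) held. Those of KCS6, CER4, CER2 and MAH1 ended (0.0544 to 0.115). Of all genes, 1370 of 20515 were called when summed, against 3557 of 19989 before. KCS6 was at -0.93 without M8s and at -0.83 and -0.88 by limma on TPM, and MAH1 lost its call without M5c or M7s (adjusted p = 0.0501 and 0.0788).

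At severe drought (T2) CER2 fell in Mmo, and CER4, MAH1 and CER2 fell in Mav. In Mmo, CER2 had 9.64, 12.2 and 12.0 CPM in droughted plants, against 33.2 and 33.1 CPM in controls, and was the only wax gene that fell (-1.57 ± 0.19, adjusted p = 0.0202). KCS1 had 6.0, 5.3 and 16.1 CPM in droughted plants, against 36.4 and 36.7 CPM in controls (-2.01 ± 0.51, adjusted p = 0.0853). KCS6 had 10.8, 11.6 and 11.8 CPM in droughted plants, against 21.1 and 18.6 CPM in controls (-0.81 ± 0.18, adjusted p = 0.0682). The groups did not overlap for these 3 genes, nor for CER1, CER3, MAH1 and CER4, while 22.9% of all genes were likewise lower in every droughted library. Of the 20497 genes tested, 2.21% rose and 2.27% fell, and the median log2 fold change was -1.42 over the wax genes and 0.02 over all genes. The epidermal markers summed to 106 to 110 CPM in droughted plants, against 128 and 189 CPM in controls, and had a median log2 fold change of -1.27 with 0 of 4 called, and of the mesophyll genes 0 of 4 were called (summed 6916 to 11801 CPM in droughted plants, against 11779 and 15601 CPM in controls). The part of neither list in the wax gene result was tested.

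The control group of Mmo at T2 held only 2 libraries, and M20s stood apart from the other droughted plants. MAH1 was at 5.17 and 6.26 CPM in M17s and M19s and at 57.8 CPM in M20s, against 129 and 115 CPM in controls. CER1 was at 88.9 and 78.2 CPM in M17s and M19s and at 273 CPM in M20s, against 290 and 464 CPM in controls. Without M20s, which left the nearly identical M17s and M19s, 6 wax genes were called. They were CER1 at -2.18, CER4 (adjusted p = 0.00577), KCS1 at -2.71, MAH1 at -4.43 and WSD1 at -3.24, beside CER2. The share of all genes called without M20s is not given here, so nothing is read from that count. Conversely the call of CER2 ended without any one of M14c, M16c, M17s and M19s (adjusted p = 0.0825 to 0.123) and with near-identical libraries summed (0.0857). Of all genes, 65 of the 20195 tested were called in the summed fit. DESeq2 called CER2, CER4 and KCS1, among 2597 genes in all, where edgeR called 920. With the Mmo controls of T1, T2 and RW combined, CER1 (-1.31, adjusted p = 0.0464), CER4 (-1.70, 0.0178), KCS1 (-1.68, 0.00893) and CER2 (-1.37, 0.00219) fell. The lower controls of T0 were left out of that set.

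In Mav no wax gene rose past both limits at T2 beside the 3 that fell. CER4, the alcohol-forming reductase, had 16.5, 3.74, 12.3, 21.6 and 21.2 CPM in droughted plants, against 103, 98.6, 86.1, 123 and 110 CPM in controls. This was a log2 fold change of -2.80 ± 0.38, or 6.95-fold lower (adjusted p = 0.000165), with no overlap, and it was called in each of the alternatives run. MAH1 had 2.72, 0.985, 1.45, 1.81 and 2.46 CPM in droughted plants, against 8.05, 33.8, 0.912, 24.5 and 6.77 CPM in controls (-2.98 ± 0.75, adjusted p = 0.00772). The control A22c was below all droughted plants for MAH1, so that the groups overlapped. CER2 had 25.7, 9.1, 14.1, 16.4 and 28.3 CPM in droughted plants, against 32.2, 67.3, 22.3, 45 and 30.5 CPM in controls (-1.09 ± 0.36, adjusted p = 0.0288). The call of CER2 ended without A24c, A16c, A35s, A39s or A37s (adjusted p = 0.0545 to 0.0803) and without lane 7 (0.108).

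KCS6, which makes the longest wax precursors, moved the other way in Mav. It had 136, 78.9, 105, 94.3 and 152 CPM in droughted plants, against 37.2, 69.8, 59.3, 54.5 and 65.5 CPM in controls. Every droughted library was above every control, and the log2 fold change of 0.98 ± 0.22 (adjusted p = 0.00437) was just short of the fold limit. With the Mav controls of T1, T2 and RW together KCS6 rose by 1.23 (adjusted p = 0.000267), without lane 7 by 1.14, and without A9c, A16c, A35s, A39s or A37s by up to 1.10. KCS1 (0.32 ± 0.22) and KCR1 (0.24 ± 0.23) were not called. CER1 was at 381, 299, 240, 236 and 414 CPM in droughted plants and at 286, 1040, 141, 763 and 722 CPM in controls (-0.92 ± 0.45, adjusted p = 0.123), and was called without A22c (-1.17, adjusted p = 0.0174). MYB96 was at 10.5 to 16.2 CPM in droughted plants and 7.38 to 31.5 CPM in controls (-0.32 ± 0.33). Of the 19613 genes tested, 11.6% rose and 16.6% fell, and the median log2 fold change was -0.68 over the wax genes and -0.01 over all genes. Of the epidermal markers 3 of 4 fell, with a median log2 fold change of -1.46 (summed 120 to 152 CPM in droughted plants, against 133 to 208 CPM in controls). Most of that sum was KCS10, which averaged 113 CPM in droughted plants and 111 CPM in controls. The 4 mesophyll genes all fell too, and the part of neither list in the wax gene result was tested.

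The response of Mmo minus that of Mav at T2 is given as a description, since differences between these species are counted among the values behind the choice of genes. The log2 difference passed both limits for the condensing enzymes KCS1 (-2.35 ± 0.50) and KCS6 (-1.80 ± 0.35) and for no other wax gene. Droughted KCS6 was below control in 3 of 3 Mmo libraries and above it in 5 of 5 Mav libraries. For CER4, which was lower in droughted plants of both species, the difference was 1.29 ± 0.64, and for CER2 it was -0.50 ± 0.56. Of the 22323 genes tested, 2.76% had a higher and 2.43% a lower response in Mmo. Neither enzyme passed the limits when near-identical libraries were summed or without M16c, 1 of the 2 Mmo controls. The log2 differences were still between -1.69 and -2.36. Of all genes, 349 of 22146 passed both limits when summed, against 1158 of 22323 before. The differences of the other 8 genes had SEs of 0.37 to 1.33, which leaves room for large ones.

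**Figure D3:**
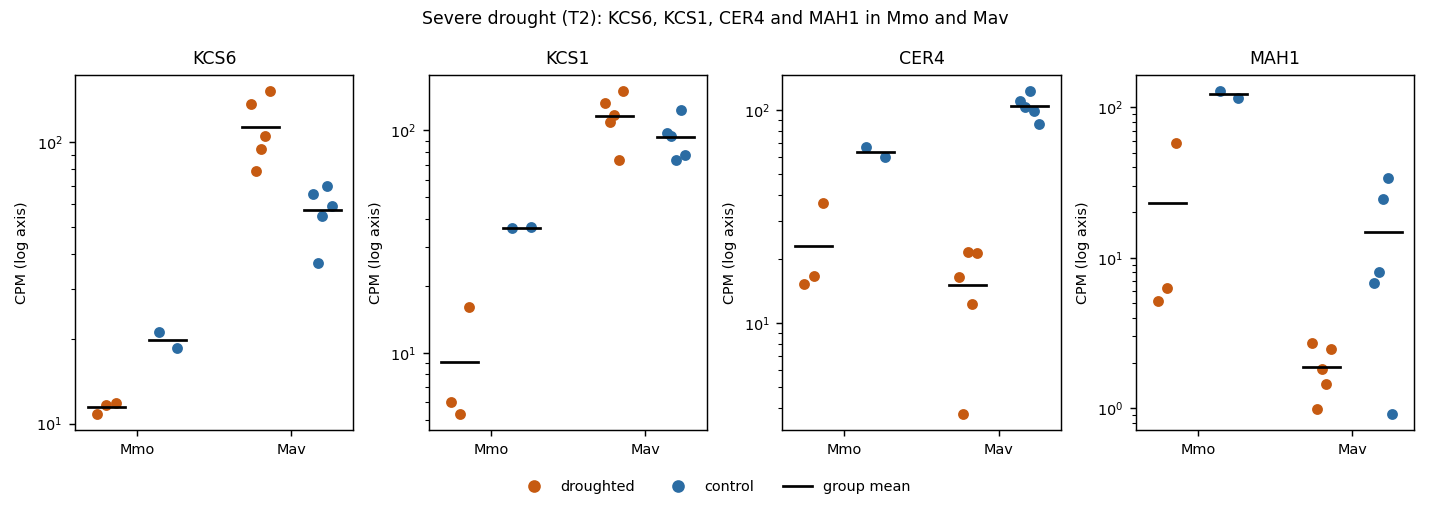
CPM (log axis) of KCS6, KCS1, CER4 and MAH1 at T2, droughted left of control within Mmo (n = 3 and 2) and Mav (n = 5 and 5), each point 1 library and each line a group mean. KCS6 averaged 11.4 CPM in droughted and 19.8 CPM in control Mmo but 113 CPM in droughted and 57.2 CPM in control Mav, while CER4 was lower under drought in both species.

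Under severe drought the 2 species stood far apart in the condensing enzymes. Mmo over Mav, the log2 fold change was -3.32 ± 0.27 for KCS6 and -3.69 ± 0.45 for KCS1 (5.3 to 16.1 CPM in Mmo, against 73.9 to 151 CPM in Mav). MAH1 was the one wax gene higher in Mmo (5.17 to 57.8 CPM, against 0.985 to 2.72 CPM in Mav, 3.61 ± 0.75). CER1, CER2 and WSD1, which had been among the lower genes of Mmo at T0, had log2 fold changes of -1.10 ± 0.43, -0.74 ± 0.36 and 0.02 ± 0.68. This contrast called 17% of 20561 genes higher and 15.2% lower, and it too is given as a description. Droughted Mmo was in lane 6 and droughted Mav in lanes 2 and 7, so that species and lane cannot be told apart. Without M20s, CER1 (-1.92) and WSD1 (-1.58) were called as well, DESeq2 also called CER1 (-1.09), and it gave MAH1 no adjusted p.

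In Msu at T1 no wax gene passed both limits, at an adjusted p that few genes reached: of 19657 tested, 0.137% rose and 0.0305% fell, while 16.2% had an unadjusted p under 0.05 and DESeq2 called 6.47%. CER4 had 9.88, 2.93 and 11.2 CPM in droughted plants, against 55.4, 28.9, 32.6 and 45.4 CPM in controls. The groups did not overlap, and the log2 fold change was -2.31 ± 0.47 (adjusted p = 0.0688), called by DESeq2 (0.000128), by limma on TPM (0.0428 and 0.0497) and without the filter on low counts (0.0289). CER1 (-0.85 ± 0.39) and CER3 (-0.67 ± 0.27) were also lower in each droughted library than in each control, as were 8.06% of all genes. Of the wax genes 3 had an unadjusted p under 0.05, and the median log2 fold change was -0.49 over the 10 and 0.02 over all genes. KCS6 was at 17.1, 33.5 and 20.0 CPM in droughted plants and 23.4, 14.5, 20.2 and 24.3 CPM in controls (0.23 ± 0.31), and KCS1 had a log2 fold change of 0.00 ± 0.29.

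The response at T1, Mmo minus Msu, was tested on genes chosen with results of these libraries known. The part of the tetraploidy of Msu in this contrast was not tested. A difference in response was called for the same pair of condensing enzymes. The difference was -1.91 ± 0.39 for KCS1 (adjusted p = 0.0123) and -1.31 ± 0.36 for KCS6 (adjusted p = 0.0483), where 2.46% of 21364 genes had a higher and 3.64% a lower response in Mmo. With near-identical libraries summed KCS1 was at -2.06 (adjusted p = 0.0498) and KCS6 at -1.41 (0.143). Of all genes, 383 of 21757 were called when summed, against 1303 of 21364 before. The call of KCS6 ended without any one of S18c, S24c, S26c, S35c, S13s, M5c, M9c, M10c, M7s, M8s or M12s (adjusted p = 0.0517 to 0.129), as well as by limma on TPM and without the filter.

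At T2 in Msu, no wax gene and no gene at all was called by edgeR or DESeq2 between the libraries labelled droughted and control (0% of 20376 genes higher and 0% lower, DESeq2 0%, and 1.30% at an unadjusted p under 0.05, none of the 10 among them). KCS6 was at 88.2 and 96.5 CPM in S2s and S4s but at 13.4 and 16.4 CPM in S5s and S8s, against 39.5 CPM in S28c and 16.2 and 17.9 CPM in S33c and S36c. MAH1 was at 0.269 and 0.376 CPM in S2s and S4s but at 46.4 and 47 CPM in S5s and S8s, against 7.29, 46.7 and 48 CPM in the 3 controls. The droughted group thus split into 2 pairs, 1 of them at the level of the controls S33c and S36c. With those 4 libraries left out, a choice made after seeing the data that leaves 2 libraries against S28c, the log2 fold change was 1.24 ± 0.29 for KCS6 (adjusted p = 0.219), -4.48 ± 0.60 for MAH1 (0.15) and -1.09 ± 0.76 for CER4 (0.608). Set against the Msu controls of T1, a different sampling point, S2s and S4s were higher in KCS6 (2.20 ± 0.24, adjusted p = 0.00157), KCS1 (1.53 ± 0.24, 0.00585) and CER3 (1.49 ± 0.21, 0.00428), also a choice made after seeing the data. All 4 labelled droughted libraries against the same T1 controls gave calls for KCS1 (1.30) and CER3 (1.28).

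**Figure D4:**
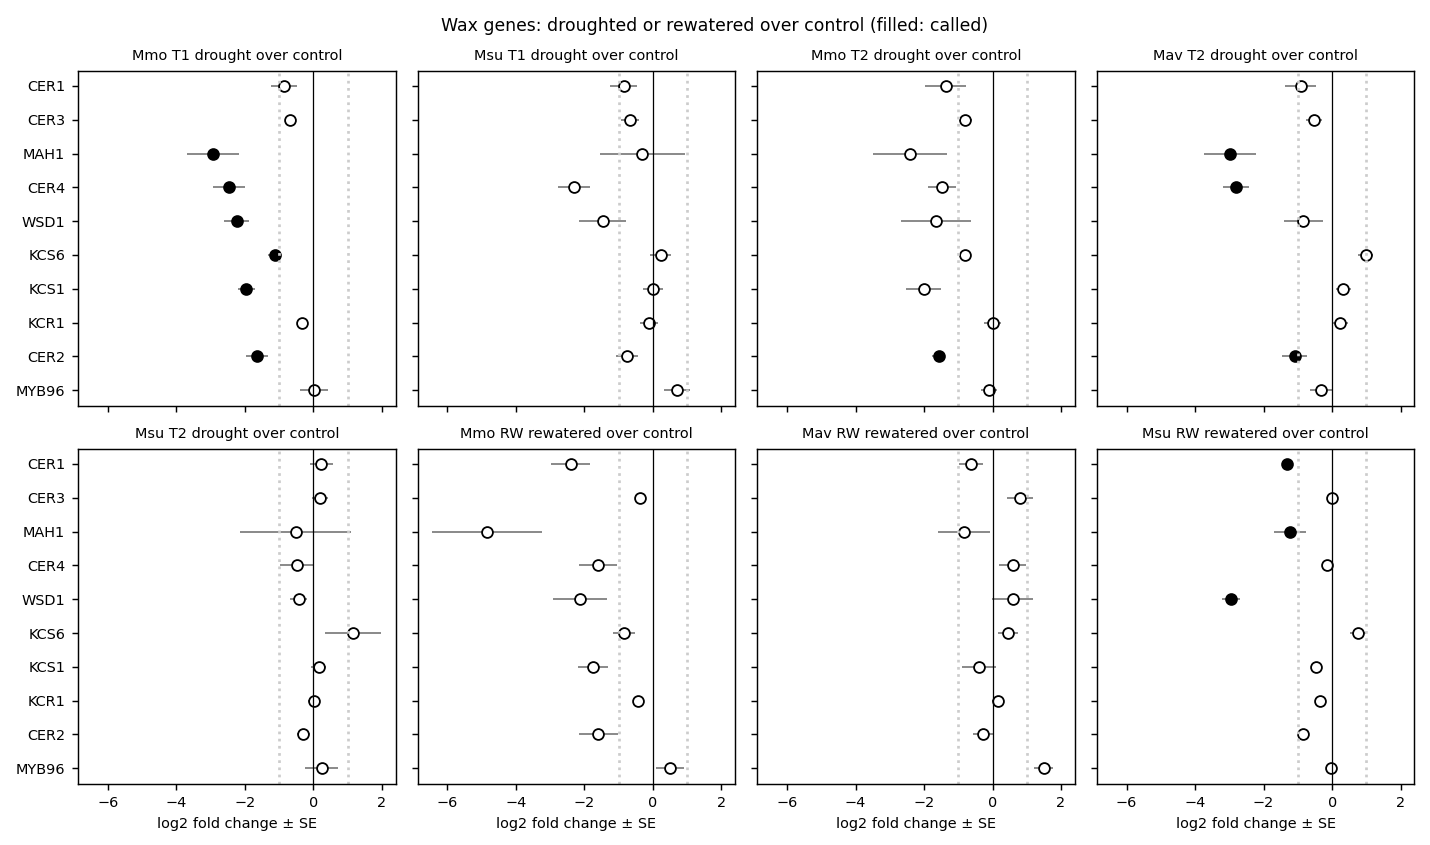
Log2 fold change ± SE (edgeR) of each wax gene in 8 comparisons of droughted or rewatered over control plants, filled where called, with dotted lines at the fold limit. The filled points of Mmo at T1 and of Mav and Mmo at T2 all lie left of 0, while KCS6 in Mav at T2 sits at 0.98 and MYB96 in rewatered Mav at 1.49.

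Rewatered plants were compared with controls to ask which differences were present after rewatering. In Mmo no wax gene was called, where 0.0669% of 19445 genes rose and 0.113% fell, although 8 of the 10 had an unadjusted p under 0.05 (19.7% of all genes) and DESeq2 called 5 of them (5.71% of all genes). CER1 had 33.3, 38.8 and 34.4 CPM in the nearly identical M26s, M27s and M28s and 130 CPM in M25s, against 402, 144, 253 and 433 CPM in controls (-2.40 ± 0.57, adjusted p = 0.112). MAH1 had 0.313, 0.996 and 0.329 CPM in those 3 and 7.04 CPM in M25s, against 116, 2.07, 8.54 and 118 CPM in controls (-4.85 ± 1.60, adjusted p = 0.169). KCS1 had 6.1, 5.83, 5.76 and 14.8 CPM, against 21.6, 17.6, 47.9 and 21 CPM in controls (-1.75 ± 0.44, adjusted p = 0.119). CER1, CER3, KCS1 and KCR1 were below every control in all rewatered libraries, as were 5.62% of all genes. Without M25s, CER1 (-3.14), WSD1 (-3.01), CER2 (-2.49), KCS1 (-2.21) and KCS6 (-1.26) were called, on 3 nearly identical libraries. The share of all genes called without M25s is not given here, so nothing is read from the number of these calls. The median log2 fold change was -1.60 over the wax genes and -0.02 over all genes. All rewatered libraries were in lane 7 and all controls in lane 6, so that lane and treatment cannot be told apart here.

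In Mav the rewatered plants differed from controls in no called wax gene (0.173% of 19623 genes rose and 0.0917% fell). MYB96 had 19, 19, 32.9 and 23 CPM in rewatered plants, against 12.2, 8.74, 5.76, 5.28 and 10.2 CPM in controls, without overlap (1.49 ± 0.28, adjusted p = 0.0628). It was called by DESeq2 (adjusted p = 0.000284), by limma on TPM (0.0358 and 0.0412) and without A6c or A40s (0.0324 and 0.0263). A6c was the highest control for all other 9 genes, with 228 CPM of CER3 against 67.2 to 85.2 CPM in the other controls, and without it CER3 (1.32) and CER4 (1.12) were called higher in rewatered plants. Of the 10 genes, 1 had an unadjusted p under 0.05 (18.4% of all genes) and DESeq2 called 1 (4.05% of all genes).

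In libraries labelled Msu at RW, CER1, MAH1 and WSD1 were lower in rewatered plants than in controls, beside 15.6% of 20489 genes that were higher and 15.9% that were lower. WSD1 had 4.12, 8.19, 7.75 and 3.81 CPM in rewatered plants, against 44, 49.8 and 42.9 CPM in controls (-2.95 ± 0.27, adjusted p = 3.28e-05). CER1 had 206, 158, 148 and 213 CPM in rewatered plants, against 427, 440 and 443 CPM in controls (-1.31 ± 0.14, adjusted p = 7.38e-05), and MAH1 had 18 to 71.4 CPM, against 101 to 110 CPM (-1.24 ± 0.47, adjusted p = 0.0458). These controls are the 3 libraries nearer to Mmo than to Msu of T1. Against the Msu controls of T1, MAH1 was instead higher in rewatered plants (3.40, adjusted p = 0.0328), and CER1 (-0.29, 0.567) and WSD1 (0.52, 0.588) were not called. The call of MAH1 also ended with DESeq2 (0.0578), with near-identical libraries summed (0.104) and without any one of S5c, S6c, S7c, S1s and S4s (0.0553 to 0.109).

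Recovery was followed as rewatered plants over droughted plants of T2. In Mav, 4 wax genes rose and KCS6 fell, where 17.8% of 19819 genes rose and 15.7% fell. CER4 had 82.5, 84.7, 76.1 and 86.9 CPM in rewatered plants, against 3.74 to 21.6 CPM in droughted plants (2.46 ± 0.39, 5.52-fold, adjusted p = 0.000502). MAH1 had 9.06, 9.58, 8.91 and 7.99 CPM in rewatered plants, against 0.985 to 2.72 CPM (2.24 ± 0.29, adjusted p = 0.000124). WSD1 had 24.3 to 31.9 CPM, against 3.98 to 14.9 CPM (1.71 ± 0.32, adjusted p = 0.00144), and CER2 had 39.9 to 43.7 CPM, against 9.1 to 28.3 CPM (1.16 ± 0.29, adjusted p = 0.00694). These 4 genes were higher in every rewatered than in every droughted plant, as were 23.9% of all genes. KCS6 had 51.5, 52.1, 56.8 and 51.6 CPM in rewatered plants, against 78.9 to 152 CPM (-1.09 ± 0.19, adjusted p = 0.000968). MYB96 was 0.80 ± 0.21 higher (adjusted p = 0.00974), under the fold limit. The median log2 fold change was 0.68 over the wax genes and 0.01 over all genes. Of the markers, 3 of the 4 epidermal markers rose (summed 231 to 285 CPM in rewatered plants, against 120 to 152 CPM in droughted plants) and all 4 mesophyll genes rose (15369 to 24379 CPM, against 3600 to 5576 CPM). The part of neither list in the wax gene result was tested. Of the 4 rewatered libraries 3 (A30s, A38s and A42s) were nearly identical, and with such libraries summed KCS6 was at -0.97 (adjusted p = 0.0533) while the 4 rises were called. CER2 was at 0.99 without A35s, and KCS6 at -0.98 without A44s and at -0.98 and -0.99 by limma on TPM. Since the droughted plants stand in both this and the preceding T2 comparison, the opposite signs of CER4, MAH1, CER2 and KCS6 in them are not separate evidence.

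In Mmo no wax gene was called between rewatered and droughted plants, beside 7.71% of 20192 genes that rose and 10.1% that fell, with 3 wax genes at an unadjusted p under 0.05 (40.5% of all genes) and 0 called by DESeq2 (19.9% of all genes). CER4 was at 41.3, 15.9, 16.3 and 16.1 CPM in rewatered plants and 15.3, 16.6 and 36.7 CPM in droughted plants (-0.03 ± 0.47), and KCS1 had a log2 fold change of -0.17 ± 0.52. KCR1 (-0.54 ± 0.16, adjusted p = 0.0434) passed the p threshold alone. Without M25s, MAH1 (-5.41), CER1 (-2.04) and CER2 (-1.26) were called lower in rewatered plants, at a setting whose share over all genes is not given here. The rewatered libraries were all in lane 7 and the droughted ones all in lane 6, so that lane and rewatering cannot be told apart. Whether recovery differed between Mmo and Mav was not tested.

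In Msu, CER1, CER3, WSD1 and MYB96 were lower in rewatered than in droughted libraries, where 6.85% of 19674 genes rose and 10.3% fell. CER3 had 93.6, 112, 109 and 95.8 CPM in rewatered plants, against 281, 229, 182 and 184 CPM in S2s, S4s, S5s and S8s (-1.16 ± 0.18, adjusted p = 0.00352). CER1 (-1.21 ± 0.30, adjusted p = 0.0209), WSD1 (-1.26 ± 0.31, 0.0197) and MYB96 (-1.24 ± 0.39, 0.0488) followed. With S5s and S8s left out, CER3 (-1.40, adjusted p = 0.000428), MYB96 (-1.80, 0.000862) and CER1 (-1.41, 0.0154) kept their calls, WSD1 did not (-1.02, 0.0525), and KCS6 (-1.81, 0.0024) and MAH1 (7.08, 0.00157) gained one. MAH1 was then compared between 18 to 71.4 CPM in rewatered plants and 0.269 and 0.376 CPM in S2s and S4s. None of the 4 calls held with near-identical libraries summed (adjusted p = 0.161 to 0.261), where 0 of all 21596 genes tested were called. CER1 lost its call without S1s, S2s or S3s of RW or without lane 7 (adjusted p = 0.0505 to 0.0672) and was at -0.88 without S2s of T2. WSD1 lost its call without S1s or S4s of RW (0.057 and 0.0524), and MYB96 without S2s or S4s of T2 or any one rewatered library (0.0844 to 0.124), by limma on TPM, without the filter and without lane 7.

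Rewatered plants of Mmo and Mav differed in 8 of the 10 genes, all lower in Mmo, beside 17.1% of 20111 genes that were higher and 18.1% that were lower in Mmo. Mmo over Mav, the log2 fold changes were -3.25 ± 0.37 for KCS1, -2.75 ± 0.52 for WSD1, -2.67 ± 0.31 for KCS6, -2.61 ± 0.46 for CER1, -2.26 ± 0.52 for CER2, -2.04 ± 0.27 for MYB96, -1.90 ± 0.32 for CER4 and -1.11 ± 0.16 for CER3. MYB96 was at 3.36 to 6.85 CPM in Mmo and 19 to 32.9 CPM in Mav. All 10 genes were lower in every Mmo than in every Mav library, KCR1 at -0.96 ± 0.11 and MAH1 at -2.06 ± 0.92, as were 27.8% of all genes, in groups that each held 3 nearly identical libraries of 4. All 4 epidermal markers were lower in Mmo (summed 67.4 to 69.8 CPM, against 231 to 285 CPM in Mav). With near-identical libraries summed, which left 2 profiles a species, KCS1 alone of the 10 was called, beside 1296 of all 21464 genes. CER3 was at -0.99 without M25s. MAH1 was called without M25s (-4.05), by DESeq2 (-2.06) and by limma on TPM (-2.14 and -3.06). KCR1 was called without A40s (-1.04). This contrast is given as a description for the reason stated above.

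A list of 44 further genes of wax and cutin synthesis, export and regulation was read beside the 10. In Mmo at T1, 2 of the 41 tested rose and 12 fell, 7 of the falls among the 12 elongation genes tested. The largest falls were AT1G02190, a gene of the alkane, ester and alcohol steps (-4.48 ± 0.85), and AT2G47240, listed under elongation (-1.96 ± 0.31), and the rises were AT3G49210 (1.70 ± 0.42) and the regulator AT3G47600 (1.15 ± 0.28). In Mmo at T2, 2 of 41 rose, AT5G12420 (3.35 ± 0.55) and AT3G49210 (3.22 ± 0.62), and 8 fell, led by AT2G47240 (-2.91 ± 0.18) and AT3G43720 (-2.78 ± 0.27), a gene listed under export. In Mav at T2, 2 of 38 rose, AT3G49210 (4.93 ± 0.49) and AT3G47600 (2.85 ± 0.56), and 14 fell, led by AT2G47240 (-5.09 ± 0.31) and AT5G12420 (-4.34 ± 1.03). On recovery in Mav, 17 of 39 rose and 4 fell, with AT2G47240 at 6.22 ± 0.35, KCS16 (AT4G34250), another condensing enzyme, at 5.39 ± 0.74, AT3G49210 at -5.12 ± 0.39 and AT3G47600 at -4.16 ± 0.44. KCS16 was near the floor, at 0 to 0.04 CPM in droughted and 0.371 to 1.06 CPM in rewatered Mav. The shares of all genes that rose or fell in these comparisons are given above, and the median of the list was -0.73, -0.80, -0.57 and 0.93 in the 4 comparisons as named. In Msu 0 of 40 were called at T1, where 33 genes in all were called, and 0 of 42 at T2.

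Across the 20 groups of at least 2 libraries, with each species centred on its own mean, CER1, MAH1, CER4, WSD1 and CER2 varied together, with Pearson's r of 0.71 to 0.88 between each pair of them. KCS6 was closest to KCS1 (r = 0.71) and had r of 0.18 to 0.42 with those 5 genes. MYB96 had negative coefficients with CER1 (-0.51), MAH1 and CER2 (-0.41 each), CER4 and WSD1 (-0.40 each) and 0.06 with KCS6. These are descriptions over groups that share species, sampling points and nearly identical libraries, and carry no test. Among 24940 genes, the 3 whose group means were most like CER1 were AT3G17120 (r = 0.95), AT5G03760 (0.92) and AT3G61750 (0.91), and those most like MYB96 were AT1G18390 (0.84), AT3G05858 (0.82) and AT1G30740 (0.77).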

How the data were processed

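Leaf RNA was sequenced on an Illumina HiSeq. The authors assigned reads to Arabidopsis genes (TAIR 10) by translated BLAT searches, and the deposited files give an estimated count, rounded to whole numbers before the tests, and the authors' TPM per gene and library. BLAT's version is not given in the sources used here, and between species the values also depend on how well reads match Arabidopsis. Groups came from the sample labels. Counts were analysed with edgeR 4.0.16 in R 4.3.3 (filterByExpr, TMM, quasi-likelihood F test on the 2 groups compared, interaction term for differences in response), adjusted by Benjamini-Hochberg over all genes tested, and called where the log2 fold change exceeded 1 in size with an adjusted p under 0.05. SEs are the log2 fold change divided by the root of F. CPM used TMM factors over all 78 libraries. Alternatives were RLE size factors, no filter, no fold limit, DESeq2 1.42.0, limma 3.58.1 on log2(TPM + 1) and log2(TPM + 0.1) with genes of at least 1 TPM, near-identical libraries (ratio under 4, over genes with at least 20 counts) summed, lane 7 or each library left out, other controls and a replicate block. The alternatives that leave out S5s, S8s, S33c and S36c, or set S2s and S4s against T1 controls, were chosen after seeing the data. The 10 genes, the list of 44 and the marker lists were chosen with earlier results of these data known. Named were all 10 genes, up to 2 further pathway genes per direction with the largest called change, and the 3 genes most like CER1 and MYB96. Gene names beyond the 10 are given only where the study's annotation has them. Replicates are separate samples by label, and p-values measure the spread between them. Where libraries of a group were nearly identical, that spread may be less than the spread between plants. Total counts were 22346621 to 41675513 per library (median 31633176), and depths were high enough that the lowest count of a wax gene in any library was 9. No sequences are shown.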

Additional observations from a re-analysis of the deposited data

Results flagged for a closer look

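Within groups of 4 or 5 libraries, the highest or lowest library lay apart from the others in 31 of 140 combinations of gene and group, by Dixon's Q test on CPM. Chance gives about 1 in 20 only if libraries are independent and their values normally distributed, which was not checked. Of the 31, 17 came from 3 groups in which all libraries but 1 were nearly identical, and the genes of 1 library are not independent of each other. Most came from 5 libraries. M25s, of rewatered Mmo, was the highest for CER1 (130 CPM, others 33.3 to 38.8), MAH1 (7.04, others 0.313 to 0.996), CER4 (41.3, others 15.9 to 16.3), WSD1 (10.6, others 2.36 to 2.64), KCS1 (14.8, others 5.76 to 6.1) and CER2 (21, others 4.3 to 5.02), and the lowest for CER3 (65.5, others 90.1 to 93.1). S42, of Msu at T0, was lowest for CER1 (357 CPM, others 510 to 530), CER3 (161, others 280 to 285) and MAH1 (38.7, others 132 to 144) and highest for CER4 (127, others 61.2 to 64.4), WSD1 (34.6, others 12.6 to 15.6) and CER2 (45.9, others 35 to 36.2). In both groups the other 3 libraries were nearly identical to each other.

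A6c, a Mav control of RW, was highest for CER1 (1099 CPM, others 301 to 513), CER3 (228, others 67.2 to 85.2), MAH1 (51.5, others 3.02 to 12.8), CER4 (119, others 31 to 55.4) and KCS1 (263, others 48.5 to 68.8). A40s, of rewatered Mav, was lowest for CER3 (139 CPM, others 192 to 198) and WSD1 (24.3, others 31.7 to 31.9) and highest for KCS6 (56.8, others 51.5 to 52.1) and KCS1 (106, others 65.3 to 66.8), beside 3 nearly identical libraries. A3c, a Mav control of T1, was highest for CER4 (156 CPM, others 77.8 to 88.8) and CER2 (84.3, others 34.7 to 42.6).

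Single values lay apart in the other groups. They were CER1 in M5c (329 CPM, others 435 to 457) and S35c (391, others 149 to 165), MAH1 in A45 (29.8, others 2.39 to 7.56), M6c (145, others 97.4 to 100) and S24c (12.4, others 0.828 to 2.11), KCS1 in M23c (47.9, others 17.6 to 21.6) and CER2 in M6c (36.1, others 27.5 to 28.6).

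The responses of the condensing enzymes lay apart between species in the edgeR fit with an interaction term, on genes chosen with such differences known. The log2 difference was -2.35 for KCS1 and -1.80 for KCS6 at T2, Mmo minus Mav, and -1.91 for KCS1 and -1.31 for KCS6 at T1, Mmo minus Msu. The single droughted Mav library of T1, which entered no comparison, had 88.8 CPM of KCS6 (31.8 to 77.8 CPM in the 4 controls) and 14.1 CPM of MYB96 (5.5 to 13.7 CPM in controls), and this difference has no replicate check.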

How the results depend on the processing

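Of 818 alternative values of the 53 called wax gene values, 722 kept direction and call, 94 kept the direction without the call and 2 reversed. The reversals were MAH1 (3.40) and WSD1 (0.52) in rewatered Msu against the Msu controls of T1, where 1 of the 10 wax genes was called. Summing near-identical libraries left 2 of the wax genes called in Mmo at T1, 0 in Mmo at T2 and 0 in the recovery of Msu. It left 0 for Mav over Msu at T0 and 1 for Mmo over Mav at RW. For the T2 response difference it left 0, and for that of T1 it left 1. It could not be run for Msu at T1, where no libraries were near-identical. Of all genes, summing left 1370 called in Mmo at T1 (3557 before), 65 in Mmo at T2 (920) and 0 in the recovery of Msu (3373). It left 721 for Mav over Msu at T0 (2917) and 1296 for Mmo over Mav at RW (7081). For the response differences it left 349 at T2 (1158) and 383 at T1 (1303). DESeq2 called 3 in Mmo at T2, 1 in Msu at T1, 5 in rewatered Mmo and 1 in rewatered Mav. Of all genes it called 2597, 1395, 1277 and 896 in the same order, against 920, 33, 35 and 52 by edgeR. Limma on TPM, with either pseudocount, called 1 in Msu at T1, 1 in rewatered Mav and 1 in the T1 response difference, and no filter called 1 in Msu at T1 and 1 in that difference. Without the fold limit 6 were called in rewatered Msu, 1 in the recovery of Mmo and 8 in that of Mav. Controls of T1, T2 and RW together gave 4 in Mmo at T2, and T1 controls gave 2 in Msu at T2, or 3 with S2s and S4s alone. Without lane 7, 2 were called in the recovery of Msu. The counts over all genes are not given here for limma, no filter, no fold limit, other controls or lane 7. Nothing is read from the wax gene counts at those settings.

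Leaving out single libraries gave 5 to 6 calls in Mmo at T1, 0 to 6 in Mmo at T2, 2 to 4 in Mav at T2, and 0 in Msu at T1 and T2. For rewatered over control plants it gave 0 to 5 in Mmo, 0 to 3 in Mav and 2 to 3 in Msu, and for recovery 0 to 3 in Mmo, 4 to 5 in Mav and 1 to 4 in Msu. Between species it gave 6 for Mmo over Mav and 8 for Mmo over Msu at T0, 1 to 3 for Mav over Msu, 3 to 5 for Mmo over Mav at T2, 8 to 9 at RW, 0 to 2 for the T2 response difference and 1 to 2 for that of T1. Where a group was left with 1 library, that library was assumed to vary like the other group. The counts over all genes without single libraries are not given here, so nothing is read from these ranges.

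Only the recovery of Msu had identifiers shared between groups (S2s and S4s). With these as a replicate block 4 genes were called, CER3, MYB96, KCS6 (-1.88) and MAH1 (6.86). The deviations of same-numbered libraries from their group means correlated at 0.06 and -0.03. These values cannot decide whether the same plants were sampled, since the T2 mean included S5s and S8s. At RW, S2s and S4s also stood in different near-identical pairs. The causes of the changes between alternatives were not tested.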
